A study of Mus musculus with 44 samples.

Results

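The genes described here are Gabra2, Nnt, Tmem254b, Tmem254c, Entpd4 and Gm13304, 6 genes grouped here because their expression or copy number can vary between inbred mouse backgrounds. They were found by symbol in the deposited table, where they stand on 5 of 13218 loci, because Tmem254b and Tmem254c share a locus. The Entpd4 locus also carries the symbol Gm21685. All 5 loci passed the filter on low values, which required 1 FPKM or more in 6 or more libraries and kept 13009. The genes were chosen for their values at 15 months against the other ages, so their differences between ages are given as a description and were not tested. Diet was not used to choose them and was tested.

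The study measured total RNA of the hippocampus from 44 mice, 1 library each, on a BGI-500 sequencer, to ask what methionine restriction does with age. All 44 libraries carry the strain label C57BL/6J, and none of the labels gives a vendor, a substrain test or the sex of the mice. The groups were 6 mice labelled 5M-CD, 7 labelled 5M-MR, 8 labelled 15M-CD, 8 labelled 15M-MR, 8 labelled 18M-CD and 7 labelled 18M-MR. The first part is the age in months (5, 15 or 18), MR is read from the series title as methionine restriction, and CD is the diet it was compared with. Libraries are named below by group and the number in their title. The values are FPKM, a level scaled by transcript length and by the size of the library, and the question behind these loci is whether the 15-month mice, or single 18-month mice, came from another C57BL/6 background than the others. Expression values hold no genotype, and any background, housing or handling that went with an age cannot be told apart from the age itself.

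The labels name a flow cell lane for each library, and lanes went largely with age. The 5-month libraries were on lanes 1 and 2 except for 5M-CD 9 on lane 4, the 15-month libraries were on lanes 3 and 4, and the 18-month libraries were on lanes 2 and 3 except for 18M-MR 2 on lane 1. FPKM sums per library ran from 213116 to 282327, loci at 0 numbered from 485 to 967, and loci without a gene symbol held from 3.30% to 12.003% of the sum. Markers of neurons, dentate granule cells and CA fields were present at every age, with 4 of 4, 3 of 4 and 4 of 4 markers listed; the neuronal markers summed to medians of 482, 480 and 363 FPKM at 5, 15 and 18 months. Choroid plexus markers, 3 of 4 listed, summed to between 7.94 and 4924 FPKM over the libraries. In bulk RNA, fewer cells of a type and less RNA per cell cannot be told apart.

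GABA-A receptors are ligand-gated chloride channels that carry fast inhibition in the brain, and Gabra2 encodes their α2 subunit, which is abundant in hippocampal pyramidal cells. C57BL/6J mice carry a small intronic deletion beside a splice site of Gabra2 that lowers its mRNA and protein, and other C57BL/6 substrains lack it. Nnt encodes the nicotinamide nucleotide transhydrogenase of the inner mitochondrial membrane, which uses the proton gradient to make NADPH for the defence against peroxides. C57BL/6J also carries a deletion of several exons in Nnt that removes the functional protein. Entpd4 encodes a nucleoside diphosphatase of the Golgi and lysosomes, Tmem254b and Tmem254c encode small membrane proteins of unknown role, and Gm13304 belongs to the CCL21 group of chemokines, which guide dendritic cells and lymphocytes. Entpd4, Tmem254 and the CCL21 genes stand in duplicated stretches of the genome, where the number of copies can differ between inbred colonies.

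In the GENCODE M21 annotation of GRCm38, Gabra2 lies at chr5:70957597-71095849 on the minus strand and Nnt at chr13:119335448-119408997 on the minus strand. Tmem254c lies at chr14:26063919-26067355 and Tmem254b at chr14:26203369-26207041, both on the minus strand. Entpd4 lies at chr14:69337174-69367270 on the plus strand, and Gm13304 at chr4:42114817-42115917 on the plus strand. The genes fall into 2 kinds by how much of their transcripts is found elsewhere. Of all words of 50 bases in the annotated transcripts, 0.548% of those of Gabra2 and 0.199% of those of Nnt also occur in another gene. For Tmem254b, Tmem254c, Entpd4 and Gm13304 the share is 100%. Every word of Entpd4 recurs in Entpd4b at chr14:69555424-69585520, of which RefSeq gives Gm21685 as another name. The words of Gm13304 recur in full in Gm21541, to 73.5% in Ccl21a and to 44.8% in Ccl21b. Reads from these 3 loci could therefore be split among copies by the authors' counting, and their FPKM are uncertain as values of 1 gene.

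The windows around the annotated starts (250 bases before and 50 after, RefSeq, GRCm38.p6) show the same contrast, and 4 of the 6 genes have an entry. The window of Gabra2 (chr5:71095800-71096099, minus strand) shares no 50-base word with any other gene's window; its capitals mark the 50 bases after the start.
Gabra2: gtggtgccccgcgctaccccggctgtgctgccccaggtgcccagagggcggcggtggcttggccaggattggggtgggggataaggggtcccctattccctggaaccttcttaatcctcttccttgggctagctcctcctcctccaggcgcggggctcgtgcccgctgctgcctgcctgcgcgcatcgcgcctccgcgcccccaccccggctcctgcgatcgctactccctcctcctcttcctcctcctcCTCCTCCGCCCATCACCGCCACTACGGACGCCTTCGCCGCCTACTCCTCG
The windows of Gm13304 (chr4:42114537-42114836, plus strand) and of its relative Ccl21a (chr4:42773942-42774241, minus strand) are shown because they are nearly the same sequence. Over 299 aligned bases 296 are identical, and capitals mark the 3 that differ, C141T, C143T and A271G, counted from 1 at the 5′ end of the Gm13304 window with its base first.
Gm13304: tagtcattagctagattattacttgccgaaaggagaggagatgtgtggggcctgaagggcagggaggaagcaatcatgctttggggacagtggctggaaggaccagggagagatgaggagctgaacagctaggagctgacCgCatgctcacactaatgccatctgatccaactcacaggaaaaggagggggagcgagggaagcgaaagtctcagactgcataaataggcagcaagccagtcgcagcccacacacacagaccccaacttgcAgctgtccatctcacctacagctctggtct
Ccl21a: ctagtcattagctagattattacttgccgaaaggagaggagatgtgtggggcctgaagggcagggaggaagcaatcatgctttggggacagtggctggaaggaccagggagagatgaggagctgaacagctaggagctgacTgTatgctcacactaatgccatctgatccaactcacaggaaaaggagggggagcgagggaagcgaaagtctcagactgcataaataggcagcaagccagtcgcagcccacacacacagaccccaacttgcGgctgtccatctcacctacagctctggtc
The windows of Tmem254b (chr14:26206976-26207275, minus strand) and Tmem254c (chr14:26067376-26067675, minus strand) are shown because they overlap in a run of 284 identical bases, in capitals, which starts 16 bases later in Tmem254c. The window of Tmem254a, the copy with a locus of its own in the table, is identical to that of Tmem254c over 300 of 300 bases.
Tmem254b: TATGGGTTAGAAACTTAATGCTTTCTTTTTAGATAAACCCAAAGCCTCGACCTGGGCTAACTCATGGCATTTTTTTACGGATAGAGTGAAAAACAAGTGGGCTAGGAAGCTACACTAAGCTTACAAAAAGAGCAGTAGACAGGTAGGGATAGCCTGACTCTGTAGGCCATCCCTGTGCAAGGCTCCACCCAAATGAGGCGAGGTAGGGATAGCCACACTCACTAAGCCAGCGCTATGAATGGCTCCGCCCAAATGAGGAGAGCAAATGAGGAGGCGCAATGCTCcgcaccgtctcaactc
Tmem254c: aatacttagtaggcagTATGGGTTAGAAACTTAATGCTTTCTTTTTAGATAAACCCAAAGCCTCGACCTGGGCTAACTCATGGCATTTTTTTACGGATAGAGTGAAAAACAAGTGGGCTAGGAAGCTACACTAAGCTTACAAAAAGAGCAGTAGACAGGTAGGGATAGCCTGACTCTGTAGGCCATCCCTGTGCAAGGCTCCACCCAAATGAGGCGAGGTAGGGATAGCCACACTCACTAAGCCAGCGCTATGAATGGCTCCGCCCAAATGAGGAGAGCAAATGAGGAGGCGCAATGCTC

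Gabra2 mRNA was higher in every 15-month library than in every 5-month library. In 5M-CD it was listed at 3.82 to 6.85 FPKM with a median of 4.51, and in 5M-MR at 3.50 to 7.09 with a median of 4.79. In 15M-CD it ranged from 8.77 to 22.2 FPKM (median 14.4) and in 15M-MR from 7.46 to 21.7 (median 16.2). The 15-month mice thus stood above the highest 5-month library, which had 7.09 FPKM, but the gap at the edge was narrow, with the lowest 15-month library, 15M-MR 5, at 7.46. The 18-month libraries filled the space between and went past it on the low side: 18M-CD ranged from 1.94 to 13.4 FPKM (median 7.88) and 18M-MR from 1.76 to 16.3 (median 6.91). By mean the order of the ages was 15 months (15.3 ± 4.83 FPKM, SD, n = 16), 18 months (8.29 ± 3.92, n = 15) and 5 months (5.08 ± 1.22, n = 13). The 18-month values overlapped those of both other ages, so neighbours in that order were not separated library by library. As a mean difference on the log2(FPKM + 1) scale, 15 minus 5 months was 1.39 and 18 minus 5 months was 0.48.

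Nnt, the other single-copy gene, was also higher at 15 months, but with overlap. Its 5-month libraries lay between 2.25 and 3.72 FPKM, with medians of 3.17 in 5M-CD and 3.27 in 5M-MR. In 15M-CD it ranged from 3.39 to 7.06 FPKM (median 5.52) and in 15M-MR from 1.12 to 6.30 (median 5.65). Of the 16 libraries at 15 months, 14 were above the highest 5-month library, and the exceptions were 15M-CD 9 at 3.39 FPKM and 15M-MR 2 at 1.12 FPKM, the lowest Nnt value of all 44 libraries. The 18M-CD libraries ranged from 2.49 to 5.96 FPKM (median 4.002) and the 18M-MR libraries from 1.76 to 3.93 (median 3.33). The means were 5.25 ± 1.43 FPKM at 15 months, 3.67 ± 0.981 at 18 months and 3.11 ± 0.470 at 5 months (SD, n = 16, 15 and 13), and each age overlapped the others. The log2 difference was 0.56 for 15 minus 5 months and 0.15 for 18 minus 5 months.

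The 3 loci in duplicated sequence were lower at 15 months, and there the libraries of that age were tightly grouped. The shared Tmem254c and Tmem254b locus was listed at 5.89 to 14.3 FPKM at 5 months, with medians of 10.3 in 5M-CD and 11.6 in 5M-MR. At 15 months it was between 2.79 and 3.94 FPKM in all 16 libraries, with medians of 3.29 in 15M-CD and 3.34 in 15M-MR. No 15-month library reached the lowest 5-month value. At 18 months the locus spread over 3.71 to 12.6 FPKM in 18M-CD (median 8.94) and 3.68 to 14.8 in 18M-MR (median 9.26), so that 12 of these 15 mice were within the 5-month range and 18M-CD 3 and 18M-MR 1 were within the 15-month range. The low end of the 5-month range is 5M-CD 6 alone; the next 5-month library had 9.98 FPKM, and without 5M-CD 6 the range holds 5 of the 15. The means were 11.1 ± 2.001, 3.34 ± 0.332 and 8.76 ± 3.26 FPKM at 5, 15 and 18 months, and the log2 difference was -1.45 for 15 minus 5 months and -0.37 for 18 minus 5 months. Tmem254a, which is no member of the set but shares 73.1% of its 50-base words with other genes, was listed at 0 in 9 of 16 libraries at 15 months, in 1 of 13 at 5 months and in 8 of 15 at 18 months.

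Entpd4 followed Tmem254 at a smaller size. The 5-month libraries ran from 5.14 to 8.21 FPKM, with medians of 6.06 in 5M-CD and 7.04 in 5M-MR, and the 15-month libraries from 2.53 to 3.64, with medians of 3.20 in 15M-CD and 3.24 in 15M-MR. The ranges did not meet. At 18 months the locus was at 3.17 to 6.22 FPKM in 18M-CD (median 4.91) and at 2.56 to 6.58 in 18M-MR (median 5.17), which overlaps both ranges. The means were 6.70 ± 0.926, 3.18 ± 0.304 and 4.59 ± 1.36 FPKM at 5, 15 and 18 months, and the log2 difference was -0.87 for 15 minus 5 months and -0.49 for 18 minus 5 months.

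Gm13304 had the widest gap. It was listed at 3.75 to 9.37 FPKM in the 13 libraries at 5 months, with medians of 5.66 in 5M-CD and 4.49 in 5M-MR. In the 16 libraries at 15 months it was near 0, from 0.00860 to 0.0595 FPKM, with medians of 0.0194 in 15M-CD and 0.0292 in 15M-MR. All 13 younger mice were at 3.75 FPKM or more at this locus, and none of the 16 middle-aged mice reached 1 FPKM. In 18M-CD it ranged from 0.0279 to 5.68 FPKM (median 3.22) and in 18M-MR from 0.364 to 11.4 (median 4.22), and 2 of the 15 libraries, 18M-CD 3 and 18M-MR 1, were under 1 FPKM. The log2 difference was -2.63 for 15 minus 5 months and -0.57 for 18 minus 5 months, on a scale that understates the change of a locus near 0.

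**Figure D1:**
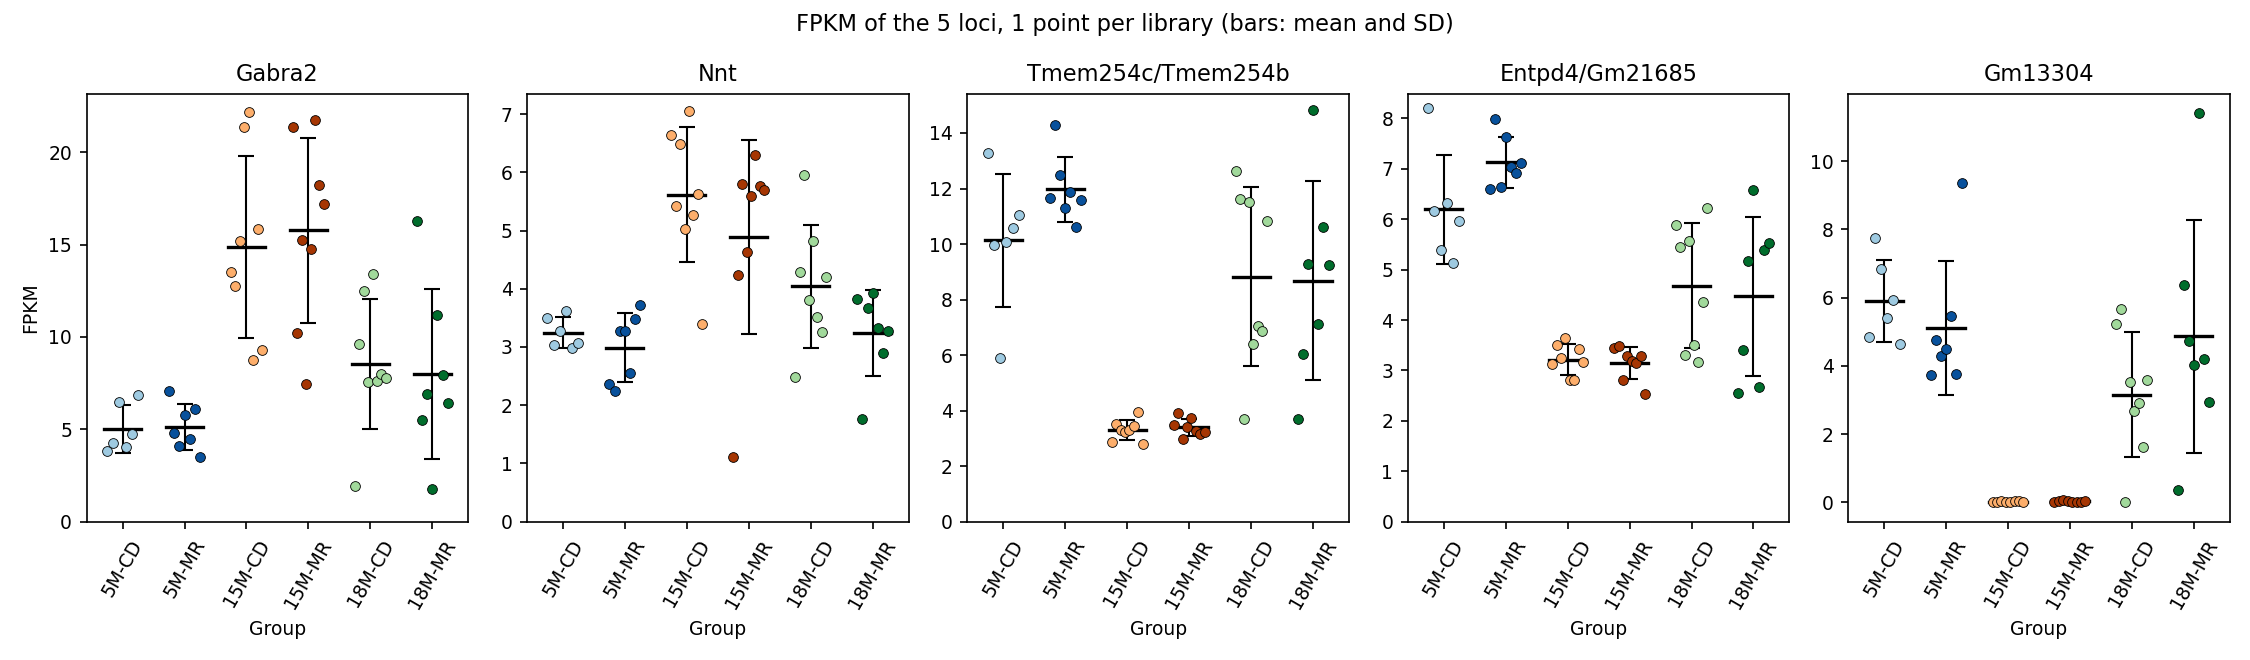
FPKM of each of the 5 loci (vertical axis, linear, own scale per panel) in the 6 groups (horizontal axis); each point is 1 library, and the bars give the mean and SD of the group. Gabra2 is higher in all 16 libraries at 15 months than in all 13 at 5 months, while Tmem254c/Tmem254b, Entpd4/Gm21685 and Gm13304 are lower. The 18-month libraries overlap both ages, and single ones lie beyond both, at the low end for Gabra2 and at the high end for Tmem254c/Tmem254b and Gm13304.

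Of the 5 loci, 4 did not overlap between 15 and 5 months, all but Nnt. Over all loci tested 35 of 13009 did not overlap, 0.269% (0.0461% above and 0.223% below the 5-month range), and since the loci were chosen on this contrast nothing is read from the comparison of those shares. At the edges, Gabra2 had the narrowest gap of the 4 (7.09 against 7.46 FPKM). Nnt overlapped in 2 libraries, 1 within the 5-month range and 15M-MR 2 below all of it. Between 18 and 5 months the share of loci that did not overlap was 0.00769% and between 18 and 15 months 0.0231%, with none of the 5 loci among them.

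Lanes shared by ages gave the following values, as a description. On lane 4, which held 11 libraries at 15 months and only 5M-CD 9 from the younger mice, Gabra2 was at 4.77 FPKM in the 5-month library and at 7.46 to 21.7 in the others. On the same lane the 5-month library had 5.92 FPKM of Gm13304, where the 15-month libraries had at most 0.0595, and 10.6 FPKM at the Tmem254 locus, where they had at most 3.94. Entpd4 was at 5.14 FPKM in that library and at 2.53 to 3.49 in the others, and Nnt at 2.98 against 1.12 to 6.30, which overlap. As 5M-CD 9 is among the libraries on which the genes were chosen, nothing is read from this about lanes. On lane 3, with 5 libraries at 15 months and 7 at 18 months, Gm13304 was at 0.00860 to 0.0439 FPKM in the former and at 0.364 to 11.4 in the latter. On that lane Gabra2 was at 12.8 to 22.2 FPKM at 15 months and 1.76 to 16.3 at 18 months, which overlap.

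The 18-month libraries were then placed one by one against the ranges of the other ages. This is a description, since single 18-month mice were part of the question for which the genes were chosen. 18M-CD 3 was within the 15-month range at 5 of 5 loci: Gabra2 at 12.5 FPKM, Nnt at 5.96, the Tmem254 locus at 3.71, Entpd4 at 3.31 and Gm13304 at 0.0279. 18M-MR 1 was within it at 4 of 5 loci, with Gabra2 at 16.3 FPKM, Nnt at 3.82, the Tmem254 locus at 3.68 and Entpd4 at 2.56, and outside it for Gm13304, at 0.364. These are the lowest Gm13304 and Tmem254 values of their groups, and both libraries were within the 5-month range at 0 of 5 loci. The other 13 libraries at 18 months were within the 15-month range at 1 to 3 of the 5 loci. With each 15-month library left out of the range in turn, a check added after the values were seen, 18M-CD 3 stayed at 5 of 5, and 18M-MR 1 had 3 or 4, against 0 to 3 for the others.

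Counted by locus, the 15 libraries at 18 months were within the 15-month range in 1 case for Gm13304, 2 for Tmem254, 6 for Entpd4, 10 for Gabra2 and 15 for Nnt. They were within the 5-month range in 6, 12, 8, 3 and 7 cases in the same order. Single libraries at the edge of a range set some of these counts: the 10 for Gabra2 became 5 without 15M-MR 5, the 15 for Nnt became 9 without 15M-MR 2, the 6 for Entpd4 became 4 without 15M-MR 15, and the 12 for Tmem254 became 5 without 5M-CD 6. The Nnt ranges of the ages overlap, so Nnt sorts no library. The 7 libraries with the least Tmem254 at 18 months and the 7 with the least Entpd4 were the same 7: 18M-CD 3, 18M-CD 6, 18M-CD 7, 18M-CD 8, 18M-MR 1, 18M-MR 2 and 18M-MR 6. Of the 7 lowest for Gm13304, 5 (71.4%) were among them. In these 7 libraries loci without a symbol held 5.97% to 12.003% of the FPKM sum, and in the other 8 libraries 4.04% to 8.91%. 18M-CD 3 had 5.97% and 564 loci at 0, within the range of 5-month libraries, whereas 18M-MR 1 had 9.50% and 967 loci at 0, the most of all libraries. The part of these differences between libraries in the members' values was not tested.

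**Figure D2:**
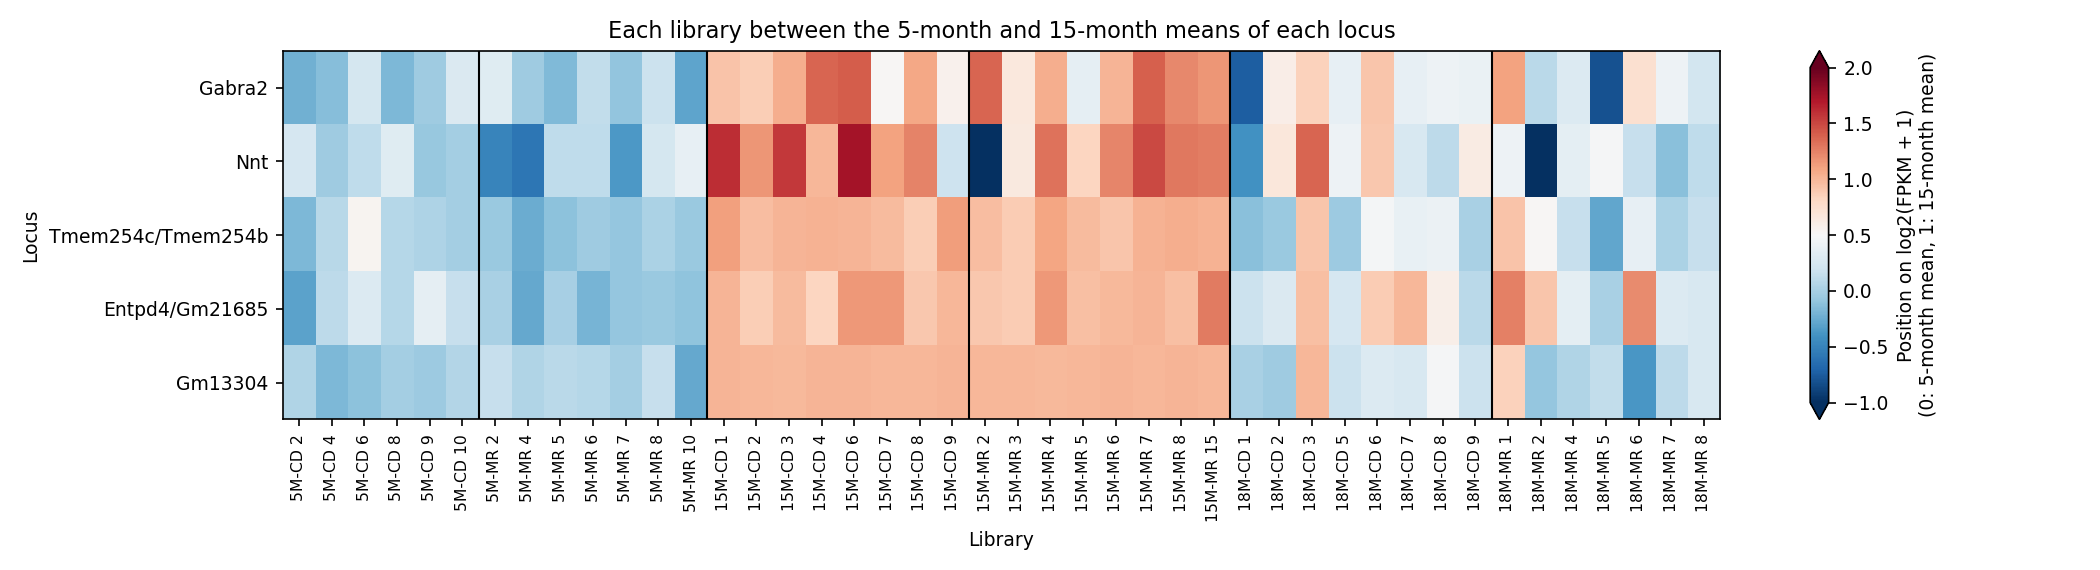
Place of each of the 44 libraries (horizontal axis) between the 5-month mean, set to 0, and the 15-month mean, set to 1, of each locus (vertical axis), on the log2(FPKM + 1) scale; black lines separate the 6 groups. Among the 18-month libraries, 18M-CD 3 and 18M-MR 1 have warm colours at 4 or more of the 5 loci, and most others have cool colours at Gm13304 and the Tmem254 locus.

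The same 2 libraries also stood out over the 35 loci that did not overlap between 15 and 5 months, 29 of them lower and 6 higher at 15 months. Both had values within the 15-month range at 24 of the 35 loci, where the other 13 libraries at 18 months had 8 to 17. Of the 35 loci, 14 were under 1 FPKM in every 15-month library, and 11 of these 14 carry no gene symbol. 18M-CD 3 was under 1 FPKM at 14 of the 14 and 18M-MR 1 at 13, while the others were so at 0 to 8. Within the 15-month range itself were 10 of the 14 in 18M-CD 3, 6 in 18M-MR 1 and 0 or 1 in the others. 18M-MR 1 also had 967 loci at 0, the most of all libraries, and the part of this in its low values was not tested. The 4 member loci are counted within the 35, and Gm13304 within the 14. Over the whole table, 18M-CD 3 had median Spearman correlations of 0.859, 0.861 and 0.850 with the 5-, 15- and 18-month libraries, and 18M-MR 1 had 0.720, 0.791 and 0.781.

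**Figure D3:**
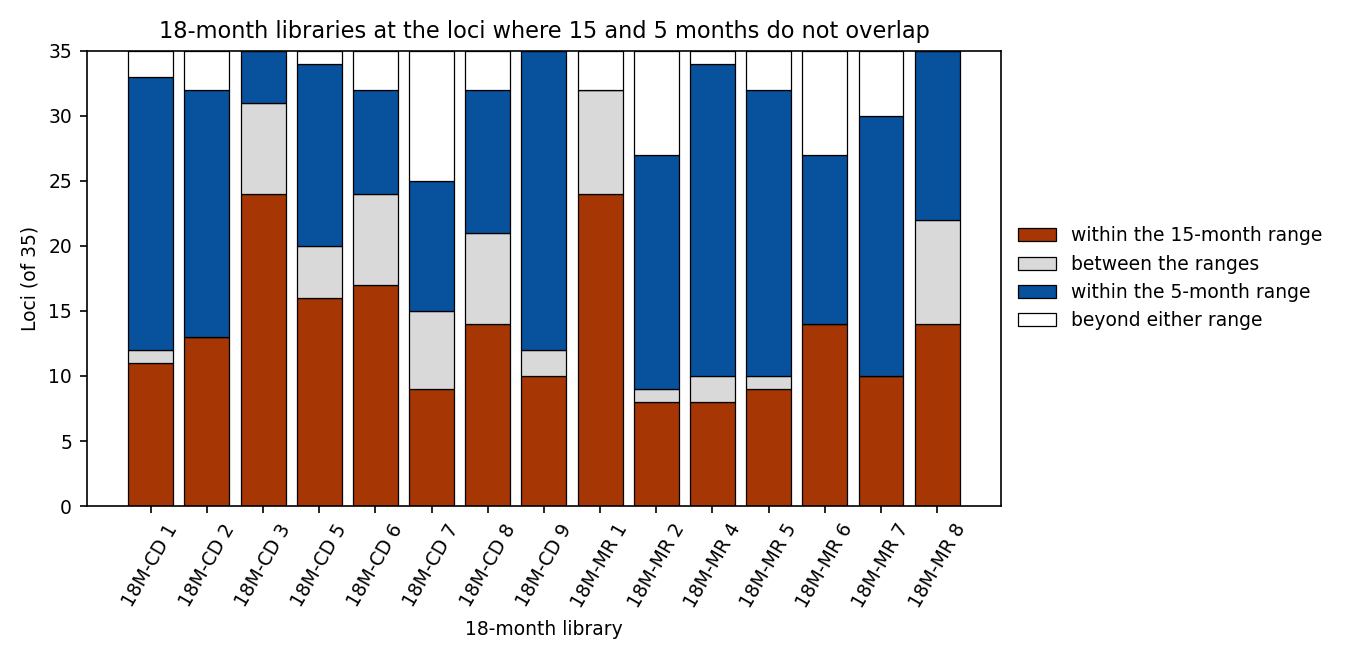
For each 18-month library (horizontal axis), the number of the 35 loci (vertical axis) whose value lies within the 15-month range, between the ranges, within the 5-month range or beyond either. 18M-CD 3 and 18M-MR 1 have 24 loci within the 15-month range, and the other libraries have 8 to 17.

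Of the 14 loci that were under 1 FPKM at 15 months, 6 have StringTie numbers from 9164, the locus of Galt and Il11ra1, to 9212, the locus of Ccl27b, which brackets the locus of Gm13304 at 9188. That span holds 19 tested loci, and the 14 are out of 13009 tested loci in all. The span was set around Gm13304, which is itself among the 6 and was chosen for its values at 15 months. Nothing is therefore read from the count. StringTie numbers ascend with position in 88.8% of 8159 consecutive pairs of loci with a known position, so the numbers give an approximate order and no coordinate. Of the 6, the symbols given are Gm13304 and a locus with Gm10601, Gm21075, Gm29801 and Gm29804, and the other 4 have none.

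No difference between the diets was called at any of the 5 loci. The comparison of MR with CD called 0 of 13009 loci at 5 months, 0 at 15 months and 0 at 18 months (0% each; limma, Benjamini-Hochberg adjusted p under 0.05), with 600, 295 and 610 loci at an unadjusted p under 0.05. For Gabra2 the difference of MR minus CD on the log2(FPKM + 1) scale was 0.02 at 5 months (95% interval -0.58 to 0.62), 0.07 at 15 months (-0.47 to 0.62) and -0.14 at 18 months (-0.70 to 0.42). For Nnt it was -0.10 (-0.49 to 0.29), -0.23 (-0.58 to 0.13) and -0.24 (-0.61 to 0.12), the same sign at the 3 ages and within the spread at each; the value at 15 months was -0.03 without 15M-MR 2. The Tmem254 locus differed by 0.25 (-0.15 to 0.65) at 5 months, 0.03 (-0.33 to 0.39) at 15 and -0.03 (-0.40 to 0.34) at 18. All of these intervals include 0, but a p that misses the threshold does not show that the diets act alike. Lanes also differed between the diets within each age, and this fit had no lane term. The diet differences are therefore not free of lane.

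Entpd4 differed by 0.19 (95% interval -0.11 to 0.49) at 5 months, -0.02 (-0.29 to 0.25) at 15 and -0.08 (-0.36 to 0.20) at 18. Gm13304 differed by -0.20 (-0.83 to 0.42), 0.01 (-0.55 to 0.58) and 0.43 (-0.15 to 1.02), the last of which was 0.17 without 18M-CD 3 and 0.74 without 18M-MR 1. Among the 15 comparisons of a member between diets the smallest adjusted p in limma was 0.937. The smallest p of the 2-sided exact permutation test was 0.0536, for Entpd4 at 5 months, where 5M-MR was higher by 0.19 on the log2 scale, and it was 0.629 after adjustment over the 15. The difference between diets did not depend on age at a called level for any locus (interaction, 0 of 13009, 540 at an unadjusted p under 0.05); the 5 members had adjusted p values of 0.987 or more in limma.

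**Figure D4:**
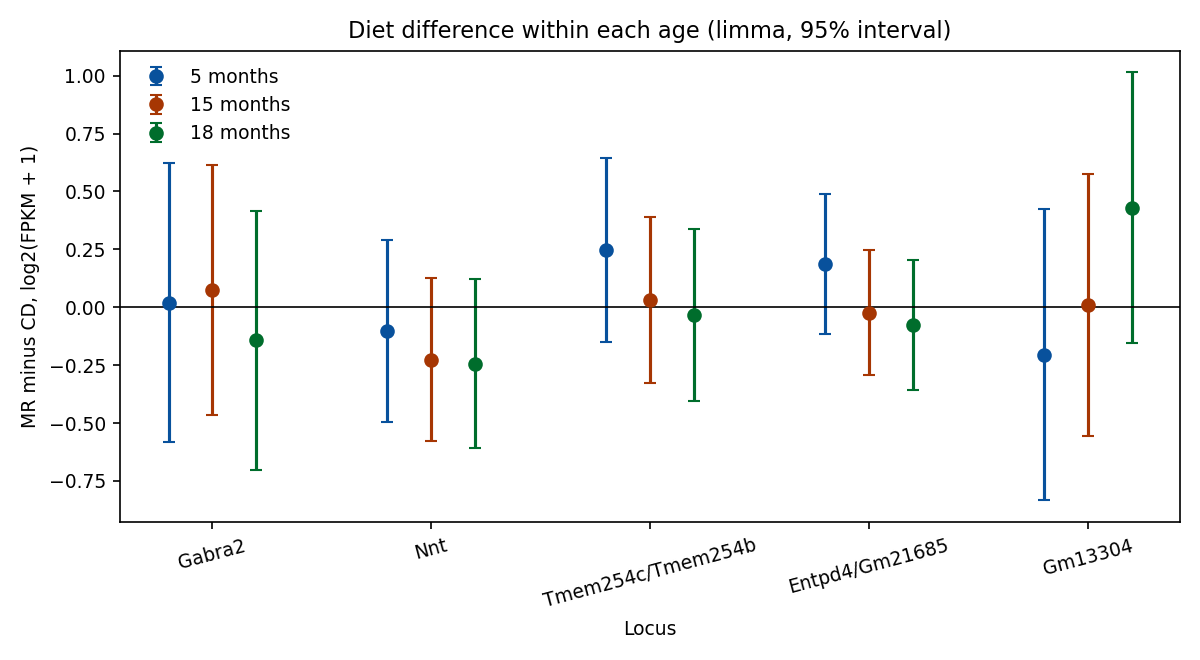
Difference of MR minus CD on the log2(FPKM + 1) scale (vertical axis) for each locus (horizontal axis) at 5, 15 and 18 months; points are limma estimates and bars 95% intervals. All 15 intervals cross 0, and the widest, for Gm13304 and Gabra2, span more than 1 unit.

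Neighbouring genes were compared in the same way. For each member the 5 nearest tested genes on each side were compared between 15 and 5 months. Only loci with 1 gene symbol and a known position were taken, so loci without a symbol or with several are left out. In this comparison limma called 19.6% of all loci at an adjusted p under 0.05. Around Gabra2, 0 of 10 were called, and the cluster of GABA-A receptor genes in which it stands showed no called difference: Gabrg1, the γ1 subunit, differed by 0.03 on the log2 scale (adjusted p = 0.948 in limma), Gabra4, the α4 subunit, by -0.62 (adjusted p = 0.131) and Gabrb1, the β1 subunit, by 0.42 (adjusted p = 0.112). Gabrg1 was at 1.77 ± 1.09 FPKM at 5 months (SD, n = 13) and 1.83 ± 0.945 at 15 months (n = 16). Around Nnt, 1 of 10 was called, the kinase gene Nim1k, which was lower by 0.62 (difference -0.62, adjusted p = 0.0247 in limma), and Paip1, the nearest gene, differed by -0.02. The call for Nim1k was lost when 5M-CD 8 or 5M-CD 10 was left out.

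Around Tmem254, 1 of 10 was called, the transcriptional co-regulator gene Zmiz1 at -0.52 (adjusted p = 0.0172 in limma). Around Entpd4, 2 of 10 were called. Of these Gm27177 fell by 0.91 (difference -0.91, adjusted p = 0.00434 in limma), from 1.51 ± 1.09 FPKM at 5 months to 0.212 ± 0.126 at 15 months. Gm27177 shares words covering 19.6% of those of Entpd4, so its reads and those of Entpd4 cannot be told apart there. The other, Pnma2, was at -0.38 (adjusted p = 0.0412) and lost its call in 12 of 44 fits that left out a single library. Around Gm13304, 1 of 10 was called, the chemokine gene Ccl27a, which was higher by 0.46 (adjusted p = 0.0199 in limma), opposite in sign to Gm13304. Ccl27a was at 15.9 ± 5.29 FPKM at 5 months and 21.7 ± 4.85 at 15 months. The other loci described above as near 0 at 15 months and numbered close to Gm13304 carry no symbol or several. They are therefore not among these 10, which do not describe all loci around Gm13304. With lane as a term, a fit in which 15 and 5 months share only lane 4 and its single younger library, the calls over all loci dropped from 2551 to 193 and of the genes named in this and the previous paragraph only Gm27177 kept its call (-1.75, adjusted p = 0.0300). The differences of those that lost it were as large or larger in that fit, -0.73 for Nim1k, -0.91 for Zmiz1, -0.64 for Pnma2 and 0.47 for Ccl27a. Over all neighbours, 10 around each member locus, 5 loci were called, against 2551 of all 13009 loci. In a fit of only the groups compared 12 were called, against 3824 of all loci, and with array weights 13, against 4537. With a single library left out the count was 3 to 9, against 1907 to 3037 of all loci.

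**Figure D5:**
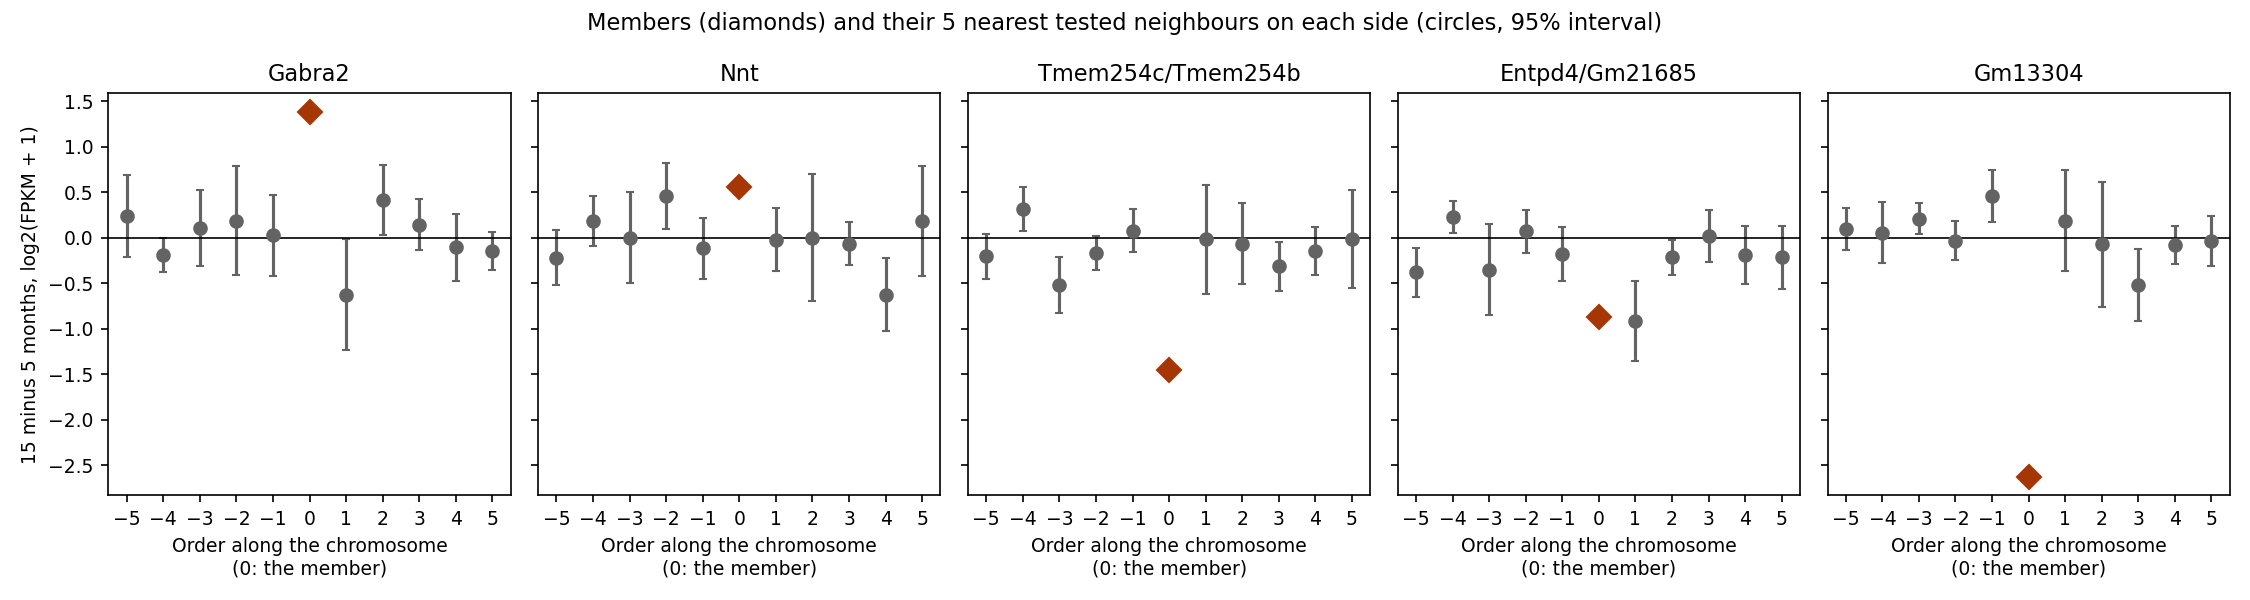
Difference of 15 minus 5 months on the log2(FPKM + 1) scale (vertical axis) for each member (diamond) and its 5 nearest tested genes on each side (circles, with 95% intervals), in chromosomal order (horizontal axis). The members' values are 1.39, 0.56, -1.45, -0.87 and -2.63, and the gene next to Entpd4 is Gm27177 at -0.91. The members were chosen on this contrast, so nothing is read from their size against that of their neighbours. Loci without a symbol or with several are not among the circles.

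Other genes that can vary between C57BL/6 substrains were set beside the members, including Tmem254a, which shares sequence with Tmem254b and Tmem254c. Of such genes 6 loci could be tested, among them Wdfy1, Ide, Cyfip2 and Tmem254a, and 0 of the 6 were called between 15 and 5 months, against 19.6% of all loci. In a fit of only the groups compared 2 were called, against 3824 of all 13009 loci, and with array weights 2, against 4537. With a pseudocount of 0.1 the count was 1, against 2658 of all loci. Without the 6 libraries in which loci lacking a symbol hold over 8% of the FPKM sum it was also 1, against 2703. Tmem254a came nearest (-0.85, adjusted p = 0.0526 in limma). Cyfip2, an actin regulator with a missense variant in C57BL/6N, was at 56.6 ± 9.50, 44.1 ± 7.58 and 38.2 ± 15.3 FPKM at 5, 15 and 18 months (SD, n = 13, 16 and 15). Between 18 and 5 months, where limma called 35.9% of all loci, 2 of the 6 were lower, among them Cyfip2 (-0.68, adjusted p = 0.00458 in limma). Without the 6 libraries over 8%, 1 of the 6 was called, Cyfip2 (-0.66, adjusted p = 0.033 in limma), against 625 of all 13009 loci.

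The other subunits with which Gabra2 forms receptors were examined as a list. Of 10 loci for other GABA-A subunits, limma called 1 higher and 3 lower at 15 than at 5 months, with a list median of -0.17 against 0.01 for all loci. Of all loci 19.6% were called. Gabrb2, the β2 subunit, was higher (15.7 ± 3.75 against 21.0 ± 2.86 FPKM, difference 0.41, adjusted p = 0.0178 in limma). Gabra3, the α3 subunit, was lower by 1.47 on the log2 scale (difference -1.47, adjusted p = 0.0154) and varied widely, at 6.78 ± 6.34 FPKM at 5 months and 1.65 ± 2.59 at 15 months. Gabrd, the δ subunit, was lower as well (-0.41, adjusted p = 0.0309), but lost its call without 5M-CD 2, 5M-MR 10 or 15M-MR 5. Among subunits of the same kind as Gabra2, Gabra4 differed by -0.62 (adjusted p = 0.131) and Gabra5, on a locus shared with Gm42385, by -0.15 (adjusted p = 0.607). With lane as a term 0 of the 10 were called. Between 18 and 5 months 4 of the 10 were called, 1 higher and 3 lower, where 35.9% of all loci were called. Without the 6 libraries over 8% the count was 0, against 625 of all 13009 loci.

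Genes that build and supply the inhibitory synapse had 7 of 17 loci called between 15 and 5 months, 1 higher and 6 lower, with a median of -0.31 against 0.01 for all loci, of which 19.6% were called. Slc12a5, the neuronal chloride exporter KCC2, fell by 0.33 (difference -0.33, adjusted p = 0.0104 in limma), and Lhfpl4, an auxiliary subunit of the receptor, fell by 0.31 (difference -0.31, adjusted p = 0.0136). Gphn, the gephyrin gene, differed by -0.09 (adjusted p = 0.876) and Gad1, which makes GABA, by -0.35 (adjusted p = 0.0844). With lane as a term 1 of the 17 was called, Slc12a5 (-0.65, adjusted p = 0.0359). At 18 against 5 months 10 of the 17 were lower, where 35.9% of all loci were called. Without the 6 libraries over 8% the count was 3, against 625 of all 13009 loci. Between these ages the summed neuronal markers went from a median of 482 to 363 FPKM (340.0 to 572 against 205 to 529) and the oligodendrocyte markers, 3 of 4 listed, from 405 to 621 FPKM (238 to 601 against 391 to 1382). Their part in the result was not tested.

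Mitochondrial enzymes that make NADPH or use it beside Nnt had 2 of 13 loci called between 15 and 5 months, against 19.6% of all loci, a share near the background. Gpx4, which reduces lipid peroxides, was higher by 0.30 (adjusted p = 0.0273 in limma) and lost its call without 5M-CD 2 or 5M-MR 6. Me3, the mitochondrial malic enzyme that makes NADPH, was lower by 0.75 (difference -0.75, adjusted p = 0.0225) and lost it without 5M-CD 2. Idh2, another mitochondrial source of NADPH, differed by -0.20 (adjusted p = 0.0972). With lane as a term 0 of the 13 were called, and Me3 was at -0.16 (adjusted p = 0.843). Of 5 relatives of Entpd4, 0 were called. Of 4 chemokine loci near Gm13304, Ccl27a was higher and the merged locus that holds Ccl21b was lower (-0.61, adjusted p = 0.0177), both without a call when lane is a term, the latter at 1.73 ± 0.798 FPKM at 5 months, 0.779 ± 0.454 at 15 and 2.19 ± 1.80 at 18. Between 18 and 15 months, where 0.4% of all loci were called, this merged locus was higher (0.74, adjusted p = 0.0388), but 17 of 44 fits that left out a single library lost that call, as did the fit without the 6 libraries over 8%.

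Across the 44 libraries the members' values went together, with Gabra2 and Nnt opposite in direction to Tmem254, Entpd4 and Gm13304. The members were chosen for a step between ages, which by itself gives such correlations, so nothing is read from the size of those between members. By Spearman's rho over 13008 other loci, Gabra2 was most unlike Tmem254c/Tmem254b (-0.80), the lowest of all, with Entpd4 at -0.78 and Gm13304 at -0.77 in its lowest 4. The loci most like Gabra2 were Cd59a, a complement inhibitor (0.76), Fabp7, a fatty acid binding protein of radial glia and astrocytes (0.75), and Lamtor4, a lysosomal scaffold for mTORC1 (0.73). For Nnt the most alike named locus was Gabra2 (0.64), and for Tmem254 it was Entpd4 (0.85). Entpd4 in turn was most like Dcaf8 (0.86), with Tmem254 next. With the group means taken out, Tmem254 and Entpd4 were each other's closest locus (rho 0.80), but this was not particular to the pair. Cdip1 (0.79) and Coq5 (0.79) were nearly as close to Entpd4, and Cryl1 stood at 0.74 with Tmem254. In the same way Gabra2 and Nnt stood at 0.29, Gabra2 and Tmem254 at -0.41, and Gm13304 and Tmem254 at 0.21. The points share library depth and RNA quality within a mouse, and these correlations are a description with n = 44.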

How the data were processed

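Values were used as deposited: FPKM per locus in 1 table of 44 libraries. Per the submitters' processing notes the authors trimmed with Trimmomatic 0.38 and used StringTie 1.3.4d and HISAT2, whose version is not named, on GRCm38.p6; how loci were chosen is not given in the sources used here. Read counts cannot be had from FPKM, so depth is unknown and counting error has no interval. The filter (1 FPKM or more in 6 or more libraries) kept 13009 of 13218 loci. The model was limma 3.58.1 under R 4.3.3 on log2(FPKM + 1), all 44 libraries together, a mean per group (6 groups) and an intensity trend. Age comparisons average the diets. P values are 2-sided, Benjamini-Hochberg adjusted over all loci, with a threshold of 0.05; diet was also tested by exact permutation within age (SciPy 1.17.1). Nothing says whether libraries of a group came from separate cages, so p values measure the spread between these mice.

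The members and gene lists were chosen with earlier results of these data known. Named genes are the members, the members of lists of receptor subunits, inhibitory synapse genes, NADPH enzymes, Entpd4 relatives, substrain genes and chemokines that passed a test or serve as examples, the 5 nearest genes on each side of a member, and the loci most like a member. Some members of these lists are not reported here. The fit was tested on simulated data. Positions and transcripts are from GENCODE M21, windows from RefSeq (GRCm38.p6).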

Additional observations from a re-analysis of the deposited data

Results flagged for a closer look

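In 30 groups of 6 to 8 libraries (5 loci in 6 groups), 3 libraries stood far from the rest of their group by Dixon's criterion, and chance alone flags about 1 in 20 groups. 15M-MR 2 had 1.12 FPKM of Nnt, where the group median was 5.65 and the nearest library had 4.24. 5M-MR 10 had 9.37 FPKM of Gm13304, against a median of 4.49 and 5.46 in the nearest library. 15M-MR 4 had 0.0595 FPKM of Gm13304, against a median of 0.0292 and 0.0345 in the nearest library, all near 0.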

How the results depend on the processing

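The diet differences of the members stayed within the spread under every setting tried. The smallest adjusted p was 0.290 in limma (0.685 with a single library left out). Of 210 values under other settings 202 kept sign and side of the threshold, but not all of the 210 could turn sign. The interaction statistics among them have no sign. The other filters, the fits of only the groups compared and the permutation test leave the difference itself unchanged. Signs turned for Nnt (0.027), Entpd4 (0.080) and Gm13304 (-0.018) at 15 months with lane as a term, for Tmem254 at 18 months with array weights (0.014), and for Tmem254 (0.18) and Entpd4 (0.051) at 18 months without the 6 libraries over 8%. Leaving out each library in turn moved Gabra2 between -0.052 and 0.10 at 5 months, -0.017 and 0.21 at 15 and -0.37 and 0.11 at 18, Entpd4 between -0.045 and 0.0088 at 15 and -0.17 and 0.017 at 18, and Tmem254 between -0.17 and 0.13 at 18; Nnt ran from -0.31 to -0.027 at 15 and Gm13304 from 0.17 to 0.74 at 18. The cause was not tested.

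Counts of called loci depended more on the setting. For 15 minus 5, 18 minus 5 and 18 minus 15 months they were 2551, 4669 and 52, and became 1619, 2776 and 27 with a filter at 5 FPKM, where fewer loci are tested. With lane as a term they were 193, 5153 and 15, and with array weights 4537, 4664 and 346. Only the groups compared gave 32 for 18 minus 15 months. Leaving out 18M-CD 3 and 18M-MR 1, chosen after their values were seen, gave 2575, 4042 and 87. Leaving out the 6 libraries over 8% (15M-CD 7, 15M-MR 5, 18M-CD 8, 18M-MR 1, 18M-MR 2 and 18M-MR 7), also chosen after seeing the data, gave 2703, 625 and 31. Single libraries left out gave 1907 to 3037, 3677 to 5421 and 37 to 119, with 81 without 18M-CD 3 and 119 without 18M-MR 4. For diet the counts of 0 became 2 at 5 months and 1 in the interaction with quantile normalization, 3 at 5 months, 2 at 18 months and 3 in the interaction with lane, and 406 at 5 months, 1 at 15 months and 23 in the interaction with array weights; single libraries left out gave 0 to 3 at 5 months and 0 to 1 at 15 months, 18 months and in the interaction. Counts of list genes stayed within 1.5 times in 161 of 210 cases.

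Numbers in the titles are shared by groups. Deviations of same-numbered libraries from their group means correlated at -0.011 on average over 81 pairs (-0.42 to 0.36, 14 over 0.1). Pairs with other numbers correlated at 0.0015 over 724 pairs (-0.50 to 0.45, 182 over 0.1). Same-numbered libraries were thus no more alike by this measure, but what the numbers stand for is not known. With the number as a replicate block the counts were 1074, 2265 and 27 for the ages and 0 for diet, and Tmem254 (-0.020) and Gm13304 (-0.032) turned sign at 15 months.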
